A study of Homo sapiens with 6 samples.

Results

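Collagens, laminins and other extracellular matrix proteins were read from ribosome footprints of CHL-1 cells, a human melanoma line long in culture. Members were the genes listed under a COL or LAM chain symbol, together with a fixed set of matrix glycoproteins and collagen-modifying enzymes, and 33 of the 11227 genes listed in the tables met that definition. They comprise 15 collagen chains, 6 laminin chains, 6 matrix glycoproteins and 6 enzymes that modify collagen. The rule matches 37 further symbols, which were not analysed here.

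There were 3 groups of CHL-1 cells. The first received AZC (L-azetidine-2-carboxylic acid, which resembles proline) at 10 mM together with the proteasome inhibitor MG132 at 20 µM, over 20 minutes. The second was a CRISPR line in which SNORD50A/B, neighbouring genes for box C/D small nucleolar RNAs, had been targeted, and the third was the untreated parental line. Each group had 2 libraries, 1 of them labelled as depleted of ribosomal RNA, and all cells were lysed in the presence of cycloheximide, which holds ribosomes on the messenger. The deposited data are 1 table per group, so no spread between libraries could be had and no test was possible; every difference below is between single tables. A line edited at a control site is not among the groups, the labels do not say whether the CRISPR line is 1 clone, and the edit itself was not checked here.

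Matrix proteins are secretory proteins. Collagen chains are made at the endoplasmic reticulum, where prolyl and lysyl hydroxylases modify them while they are still being synthesised and before the chains fold into a triple helix rich in glycine and proline. Laminins are cross-shaped trimers of an alpha, a beta and a gamma chain, and with type IV collagen they form the basement membrane. Hydroxyproline steadies the collagen helix, and azetidine-2-carboxylic acid is known to enter proteins in place of proline.

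A level here is normalised depth, the read depth summed over the 400 bins of a transcript (100 of 5′ UTR, 200 of coding sequence, 100 of 3′ UTR) per 1000000 of the table's total. It is not corrected for transcript length, so it compares 1 gene between tables and not one gene with another. Total depth (10 to the power of 6 bases) was 367.3 in the AZC + MG132, 586.4 in the CRISPR and 473.7 in the parental table. This total sums all listed transcripts, so a gene with several transcripts is counted more than once. A gene was compared where its depth exceeded the lower quartile of all transcripts in both tables, which is a normalised depth of 7.12 in the AZC + MG132, 6.30 in the CRISPR and 6.73 in the parental table. That minimum was passed by 31, 30 and 31 of the 33 members. COL9A1 and COL25A1 were below it in all 3 tables, and FBN1 is not listed in the CRISPR table. Depth counts bases and not reads, so no counting interval is given, and a change in messenger amount cannot be told apart from a change in ribosomes per messenger, nor fewer cells of a type from less RNA per cell. In the tables, 10 of 12 melanoma and neural crest markers were listed for the AZC + MG132, 9 for the CRISPR and 10 for the parental cells, with summed levels of 853, 872 and 1007. Of those listed, 7, 7 and 6 passed the minimum. SOX10 and MCAM had the highest levels in each table. Single markers differed both ways between the lines: NGFR was at 4.81, below the minimum, in the edited line and at 31.8 in the parental line. DCT was at 15.8 in the edited line and at 4.14, below the minimum, in the parental line. TYR and TYRP1, pigment enzymes, are listed in none of the tables. Of 8 fibroblast markers, LUM alone was listed, below the minimum, with levels of 0.989 in the CRISPR and 1.34 in the parental table, and none was listed for the treated cells. Of 4 keratinocyte markers, KRT10 alone was listed, at 8.28 in treated cells, 7.77 in the edited line and 11.6 in the parental line. Of 3 endothelial markers KDR alone was listed, at 3.93 in the parental table only, and of 3 leukocyte markers PTPRC alone, at 2.26 in the CRISPR table only, both below the minimum. What part other cell types had in the matrix levels was not tested.

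**Figure D1:**
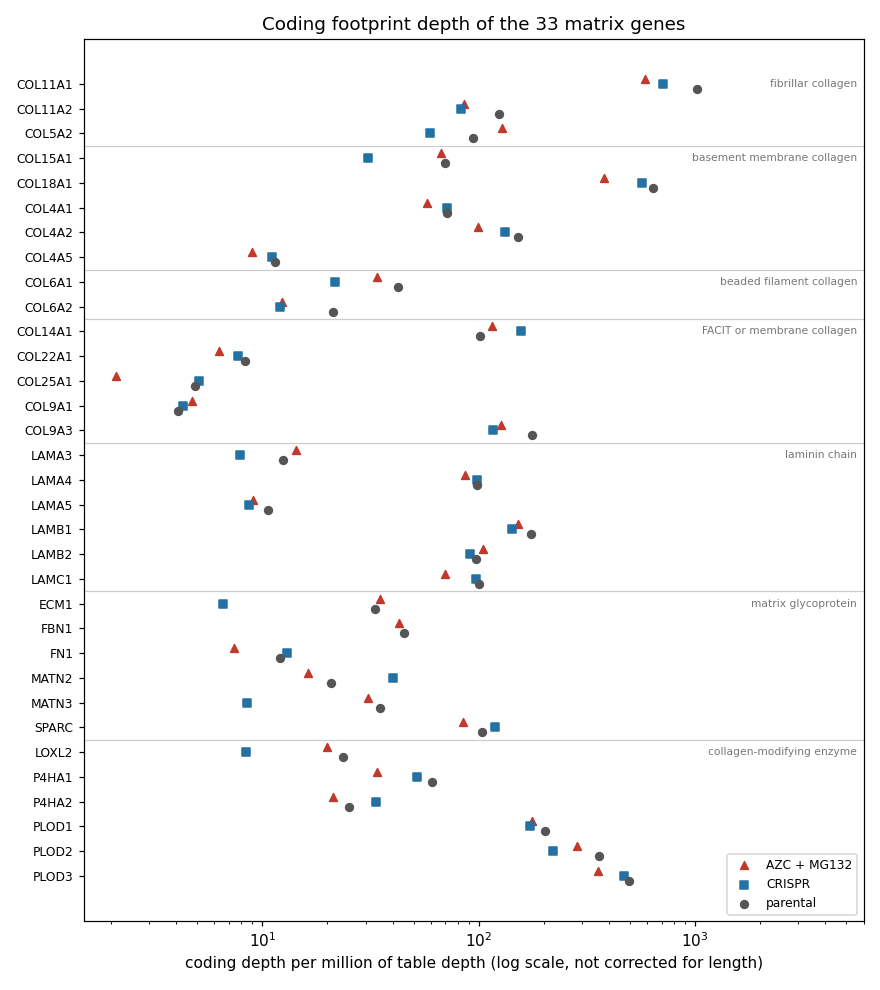
Normalised coding depth (x axis, log scale, per 1000000 of table depth) of the 33 matrix genes by role, with 1 symbol per table: triangles for AZC + MG132, squares for CRISPR and circles for parental cells. COL11A1 stands at 584, 710 and 1020, and the CRISPR symbols of ECM1, MATN3 and LOXL2 lie well to the left of the other tables.

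The chosen transcripts of the members together came to 0.357% of the table's total in treated cells, 0.383% in the edited line and 0.476% in the parental line. That total counts a gene once for each of its listed transcripts, so these values are not the members' shares of all footprints. Without COL11A1 and COL18A1 the summed level was 2567 in the treated cells, 2515 in the edited line and 3062 in the parental line.

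AZC + MG132 served the study as a ribosomal stress, and its table was set against the parental one to read its short-term footprint levels on matrix messengers. Most matrix genes were somewhat lower in the treated cells, and none differed by 2-fold. Of 31 members compared, 25 had a log2 ratio below 0, against 55.3% of all 7277 genes compared. With the totals scaled to the median ratio it was 23 of 31, beside 50.0% of all genes. None was 2-fold or more higher or lower, where 0.866% of all genes were past 2-fold higher and 2.39% past 2-fold lower. The median log2 ratio of the members was -0.24 (interquartile range -0.46 to -0.08), beside -0.05 (-0.32 to 0.21) over all genes.

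Of the 3 fibrillar collagens, 2 had ratios below 0. COL11A1, a chain of the type XI collagen that cartilage fibrils form on, had a level of 623 in the AZC + MG132 table, against 1057 in the parental table, a log2 ratio of -0.76. It was lower in the first 100 coding bins (-0.99) and in the last 100 (-0.36), each scaled to the same bins of the whole table. COL11A2, another type XI chain, was at 94.5 in treated and 130.6 in parental cells (-0.47). COL5A2, a chain of type V collagen that limits fibril width, went the other way. Its level was 135.3 in treated and 97.8 in parental cells (0.47), and it was higher in both stretches of the coding sequence (0.39 and 0.78).

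Among basement membrane collagens all 5 had ratios below 0. COL18A1, the type XVIII chain that endostatin is cut from, was at 382.6 in treated cells, against 641 in parental cells (-0.75). COL4A2 was at 103.4 against 155.2 (-0.59), while its partner in the type IV trimer, COL4A1, was at 58.6 against 71.3 (-0.28), in treated and parental cells each time. COL4A5, a chain mutated in Alport syndrome, was at 9.72 in treated and 11.5 in parental cells. COL15A1, a relative of type XVIII, was at 71.1 in treated and 72.3 in parental cells, a ratio of -0.02 that is above 0 under 2 other scalings and in coding bins alone.

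The beaded filament chains COL6A1 and COL6A2 were at -0.36 and -0.79. COL6A2 had a level of 12.6 in the treated and 21.8 in the parental table. FACIT collagens, which sit on the surface of fibrils, were mixed: COL14A1 stood at 120.4 in treated and 104.6 in parental cells (0.20), and COL9A3, a type IX chain, at 256.6 in treated and 354.8 in parental cells (-0.47). COL22A1 was at 0.06, and its coding bins alone gave -0.28, so its direction depends on the bins read.

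Laminin chains differed little. LAMC1, the gamma chain common to most laminins, was at 74.02 in treated and 101.9 in parental cells (-0.46), the lowest ratio among the 6. LAMB1 was at -0.20 and LAMA4, the alpha chain of vessel and nerve basement membranes, at -0.12. The 5 listed transcripts of LAMA4 gave ratios between -0.13 and 0.50, so its direction depends on the transcript. Those above 0 were close to the minimum, at 10.3 and 10.9 in treated and 7.67 and 7.70 in parental cells. The transcripts of higher level were at -0.12 to -0.13. LAMB2 (112.8 in treated, 100.6 in parental cells) and LAMA3 (14.3 and 12.7) had ratios of 0.16 and 0.17. LAMA5, at -0.22, gave 0.57 in the first and -0.79 in the last 100 coding bins, with depth in 25% of its coding bins in treated and 34% in parental cells.

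The collagen-modifying enzymes were all below 0, between -0.79 and -0.19. P4HA1, a catalytic subunit of prolyl 4-hydroxylase, was the lowest, at 36.3 in the AZC + MG132 table and 62.7 in the parental table. Its last 100 coding bins stood at -1.15 and its first 100 at -0.43. P4HA2, the other catalytic subunit, was at 22.9 in treated and 26.9 in parental cells (-0.23). The lysyl hydroxylases lay close together: PLOD3, which also adds sugars to collagen, was at 386.6 in treated and 515.8 in parental cells (-0.42), PLOD2 at 312.1 and 375.7 (-0.27) and PLOD1 at 182.7 and 207.99 (-0.19). LOXL2, an amine oxidase that crosslinks collagen, was at -0.22.

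Of the glycoproteins, FN1, the cell-adhesive fibronectin, was at 7.87 in treated and 12.1 in parental cells (-0.62), close to the minimum, and its 6 listed transcripts gave ratios between -0.78 and 0.64. The only FN1 transcript above 0 had levels of 2.47 in treated and 1.59 in parental cells, below the minimum. SPARC, a collagen-binding glycoprotein, was at 89.4 in treated and 107.4 in parental cells (-0.26). The matrilins MATN2 and MATN3, adaptors between matrix fibrils, were at -0.31 and -0.19. FBN1, the core of microfibrils, was at 45.3 in treated and 46.4 in parental cells, a ratio of -0.04 that is above 0 under 2 other scalings. ECM1, a secreted glycoprotein, was at 38.2 in treated and 34.2 in parental cells (0.16).

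**Figure D2:**
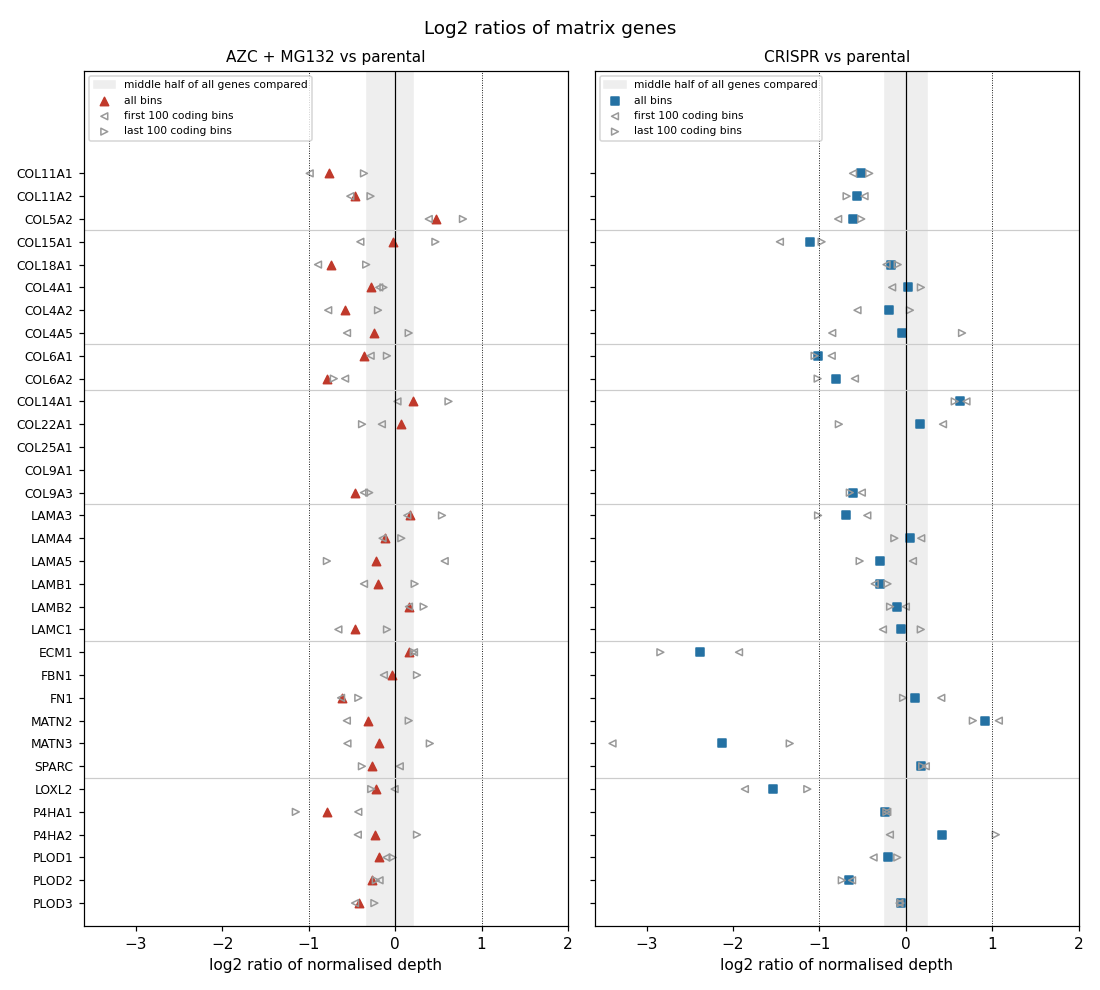
Log2 ratio of normalised depth (x axis) for each matrix gene, in the AZC + MG132 table (left panel) and the CRISPR table (right panel), each over the parental table. Filled symbols use all bins, open triangles the first and the last 100 coding bins scaled to the same bins of the table, the grey band is the middle 50% of all genes compared and dotted lines mark 2-fold; on the left no filled symbol passes a line, on the right ECM1, MATN3, LOXL2, COL15A1 and COL6A1 lie past it.

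The CRISPR table was set against the parental table to ask which matrix messengers differ in footprints once SNORD50A/B are edited. Both comparisons use the same parental table, so their ratios are not independent. Here 5 of 30 members were 2-fold or more lower in the CRISPR table, beside 1.3% of all 7541 genes, and 0 were 2-fold or more higher, beside 1.1%. The members lower past 2-fold were ECM1, MATN3, LOXL2, COL15A1 and COL6A1. FBN1 is not among the 30, since the CRISPR table does not list it. In the parental table it was at 46.4, with depth in 88% of its coding bins, and why it is missing was not tested. The median log2 ratio was -0.23 (interquartile range -0.65 to 0.01), beside 0.0038 (-0.24 to 0.25) over all genes, and 22 of 30 members were below 0, beside 49.6% of all genes.

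ECM1 had a level of 6.59 in the CRISPR table, close to the minimum of 6.30, against 34.2 in the parental table, which is 5.19-fold lower. It lay at -1.93 in the first and -2.84 in the last 100 coding bins, and 25.5% of its coding bins held any depth in the edited line, against 97.5% in the parental line. MATN3 was at 8.54 in the CRISPR and 37.2 in the parental table, 4.35-fold lower. No depth lay before coding bin 39 of MATN3 in the edited line, while depth began in bin 1 in the other tables. LOXL2 was at 8.42 in the CRISPR and 24.4 in the parental table, 2.90-fold lower, with depth in 27.5% of coding bins in the edited and 83.5% in the parental line. These 3 genes were past 2-fold lower in both stretches of the coding sequence. All 3 lay near the minimum in the CRISPR table, so the size of each fold rests on little depth. In the treated cells ECM1, MATN3 and LOXL2 were at 38.2, 32.6 and 21.05, with log2 ratios between -0.22 and 0.16.

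COL15A1 was at 33.6 in the CRISPR table, against 72.3 in the parental table (-1.11), with -1.46 in the first and -0.97 in the last 100 coding bins. COL6A1 was at 21.8 against 44.2 (-1.02), just past the 2-fold limit, and its coding bins alone gave -0.95. Its partner COL6A2 was at 12.4 in the edited and 21.8 in the parental line (-0.81). Where both tables had to cover 100 of the 200 coding bins, 0 of 19 members were past 2-fold lower, and with a level minimum 4 times higher 1 of 19 was. Over all genes 0.755% with the coverage setting and 0.576% with the higher minimum were past 2-fold lower. All 5 genes had under 100 covered coding bins in the CRISPR table, between 51 and 95, so the coverage setting removes them. ECM1, MATN3, LOXL2 and COL6A1 were below the higher minimum in the CRISPR table, so that setting removes them and leaves COL15A1. Neither setting can therefore show whether the removed genes are lower.

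The 3 fibrillar chains were lower in the edited line in the transcripts read: COL11A1 at 741 in the edited and 1057 in the parental line (-0.51), COL11A2 at 88.4 and 130.6 (-0.56) and COL5A2 at 64.1 and 97.8 (-0.61), in each case in both stretches of the coding sequence. Another listed transcript of COL11A2, NM_001163771, was at 33.4 in the edited and 31.7 in the parental line (0.08), so its direction depends on the transcript. COL5A2 thus lay below its parental level in the edited line and above it in the treated cells. COL9A3 was at 233.03 in the edited and 354.8 in the parental line (-0.61). COL18A1 (571 and 641), COL4A2 (135.9 and 155.2) and COL4A1 (72.5 and 71.3) were between -0.19 and 0.02 in the edited over the parental line. COL14A1 had the highest ratio of the collagens, at 161.6 in the edited and 104.6 in the parental line (0.63), and 0.70 and 0.57 in the first and last 100 coding bins. COL22A1 was at 0.16, and at -0.10 in coding bins alone.

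Laminin chains were again close to their parental levels, apart from LAMA3, the alpha chain of epithelial laminin, at 7.91 in the edited and 12.7 in the parental line (-0.69), with depth in 12% of its coding bins in the edited line. LAMB1 was at 143.8 in the edited and 176.8 in the parental line (-0.30). LAMC1 and LAMA4 were at -0.05 and 0.05. Another listed transcript of LAMA4, NM_001105208, was at 12.3 in the edited and 7.67 in the parental line (0.68), so the ratio depends on the transcript read.

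MATN2 had the highest ratio of all members in the edited line, 0.92, with a level of 41.5 in the CRISPR and 21.96 in the parental table. Its early (1.08) and late (0.78) stretches of 100 coding bins were both above 0, while its relative MATN3 was below. SPARC was at 121.6 in the edited and 107.4 in the parental line (0.18), and FN1 at 13.03 and 12.1. The enzymes ranged from LOXL2 to P4HA2, which was at 36.1 in the edited and 26.9 in the parental line (0.42), though its first 100 coding bins gave -0.18. PLOD2 was at 237.5 in the edited and 375.7 in the parental line (-0.66), and -0.62 and -0.74 in the first and last 100 coding bins. PLOD3 (495 and 516) and P4HA1 (52.96 and 62.7) were at -0.06 and -0.24.

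The CRISPR table covered fewer coding bins than the parental table in general, in spite of its larger total. Over all compared genes the median share of coding bins with depth was 66.5% in the edited and 89% in the parental line, and over the members it was 78.5% in the edited and 97.5% in the parental line. How far this thinner coverage bears on the lower matrix levels was not tested.

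**Figure D3:**
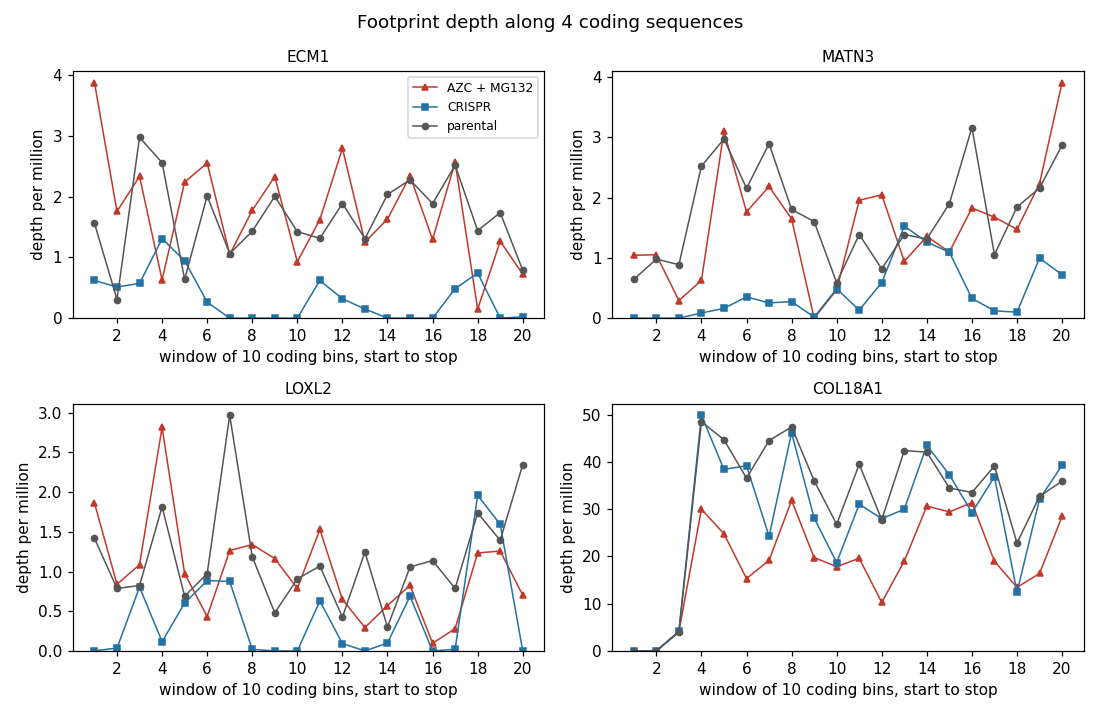
Normalised depth (y axis, per 1000000) in 20 windows of 10 coding bins from start to stop (x axis) for ECM1, MATN3, LOXL2 and COL18A1, with triangles for AZC + MG132, squares for CRISPR and circles for parental cells. The CRISPR line lies low along most of ECM1, MATN3 and LOXL2, and COL18A1 has no depth in its first 28 coding bins in any table.

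In COL18A1 and COL9A3 the position of the depth bears on how a level is read. COL18A1 is known to be transcribed from alternative promoters into forms that differ at the N-terminus. The listed transcript, NM_030582, had 0 depth in coding bins 1 to 28 in all 3 tables. From bin 29 on, 100% of its bins held depth in treated cells, 99.4% in the edited line and 100% in the parental line. COL9A3 had as much depth in its 5′ UTR bins as in its coding bins, 101.4% of coding depth in treated cells, 100.2% in the edited line and 100.9% in the parental line. That depth lay in UTR bins 1 to 63, with 128.1, 116.6 and 177.4 in those tables, and almost none lay in bins 64 to 100, next to the start codon. What this depth comes from was not tested. COL9A3 in coding bins alone was at 126.6 in treated cells and 116.4 in the edited line, against 175.95 in the parental line.

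Footprints on matrix messengers lay nearer the start codon in treated cells, at a share of genes close to that of the whole table. The 5′ share is the mean depth of the first 20 coding bins over that of all 200, and its log2 ratio between 2 tables is called the 5′ shift. In the treated cells the shift was above 0 for 25 of 30 members, beside 79.3% of all genes, with a median of 0.46 (interquartile range 0.15 to 0.59), beside 0.60 (0.12 to 1.04). FN1 had the largest, 2.81, with shares of 1.36 in treated and 0.19 in parental cells, where 21% and 33.5% of its coding bins held depth. ECM1 was at 1.51, with shares of 1.61 in treated and 0.56 in parental cells. PLOD3 (1.14 and 0.58), PLOD2 (1.44 and 0.76) and FBN1 (1.11 and 0.59) had shifts of 0.92 to 0.96 in treated over parental cells. All 6 enzymes and all 6 glycoproteins had shifts above 0.

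The shifts of collagens and laminins had lower medians. The 12 collagens with a value had a median shift of 0.23, 9 of them above 0, and the 6 laminin chains one of 0.13, 4 of them above 0. COL11A1 had shares of 1.04 in treated and 0.92 in parental cells, LAMB1 0.985 in treated and 0.975 in parental cells, and LAMB2 1.004 in treated and 1.26 in parental cells. Larger shifts, of 0.60 to 0.82 in treated over parental cells, were those of COL5A2 (1.18 and 0.78), COL4A2 (0.91 and 0.55) and LAMA5 (1.76 and 0.997). In the mean over the 30 members above the minimum in all 3 tables, the first 20 coding bins held 1.18 times the gene's mean in treated cells, 0.92 times in the edited line and 0.91 times in the parental line. Over all 7060 such genes these values were 1.51, 1.10 and 1.02. COL18A1 enters the members' mean with 0 in every table, and MATN3 with 0 in the edited line. The medians in the same order were 1.13, 0.82 and 0.90 over the members, beside 1.42, 0.96 and 0.93 over all genes. In the edited line the shift was above 0 for 10 of 28 members, beside 55.9% of all genes. Its median was -0.17 (interquartile range -0.56 to 0.28), beside 0.10 (-0.44 to 0.57) over all genes. The extreme shifts there came from sparsely covered genes: LOXL2 (-4.46), COL4A5 (-3.64) and ECM1 (1.62). They had depth in 27.5%, 22.5% and 25.5% of coding bins in the edited line. MATN3 has no shift there, since its first 20 coding bins were empty.

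**Figure D4:**
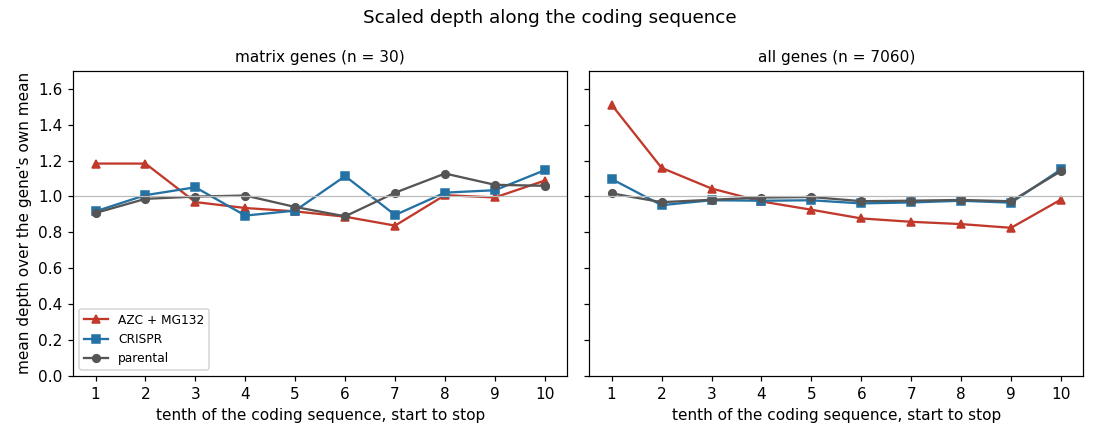
Mean over genes of depth scaled to the gene's own coding mean (y axis), by consecutive stretches of 20 coding bins from start to stop (x axis), for the 30 matrix genes (left) and all 7060 genes (right) above the minimum in every table. Triangles are AZC + MG132, squares CRISPR and circles parental cells. The treated line starts at 1.18 for matrix genes, which include COL18A1 with no depth there, and at 1.51 for all genes.

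The 5′ UTR held a larger part of the depth in treated cells. Relative to coding depth it was larger for 29 of 31 members, beside 81.1% of all genes, with a median of 5.21% in treated and 2.31% in parental cells (11.7% and 5.89% over all genes). COL11A1 had 6.54% in treated and 3.64% in parental cells, PLOD2 8.32% and 3.29%, and PLOD3 6.63% and 2.30%. LAMA3 had none in treated cells and 2.31% in parental cells. In the edited line 13 of 30 members had a larger part than in the parental line, beside 51.9% of all genes.

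Genes around the matrix proteins were read from 4 lists. Over all genes compared in the treated cells, the median was -0.05, 0.866% were past 2-fold higher and 2.39% past 2-fold lower. In the treated cells the folding and export genes of collagen had a median of -0.19 over 27 genes, with 1 past 2-fold, KLHL12, an adaptor of the ubiquitin ligase that enlarges the vesicles carrying procollagen, at 7.47 in treated and 16.4 in parental cells (-1.14), close to the minimum. HSPA5, the HSP70 of the endoplasmic reticulum, was at 2258 in treated and 1429 in parental cells (0.66), and HSP90B1, its HSP90, at 1340 and 1596 (-0.25). Processing and crosslinking genes had a median of -0.22 over 10 genes, with 2 past 2-fold lower. These were the membrane metalloprotease MMP15, at 71.1 in treated and 204.2 in parental cells (-1.52), and FURIN, a proprotein convertase, at 9.64 and 25.5 (-1.41). MMP14, which activates MMP2, was at 312.1 in treated and 261.1 in parental cells, and PXDN, which crosslinks type IV collagen, at 286.4 and 372.1. Matrix receptors had a median of -0.33 over 15 genes, with DDR1, a collagen-binding receptor kinase (-1.06), and ITGB4, an integrin chain that binds laminin (-1.16), past 2-fold lower, while ITGB1, the beta chain of most collagen and laminin integrins, and DAG1, a laminin receptor, named for their uncorrected level, had ratios of -0.63 and -0.33. Other matrix proteins had a median of -0.07 over 15 genes, with CCN1, an immediate early matricellular protein, at 32.5 in treated and 14.3 in parental cells (1.18) and the basement membrane proteoglycan HSPG2 at 46.4 and 98.4 (-1.08). VCAN, a large proteoglycan, was at 156.1 in treated and 163.9 in parental cells.

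Over all genes compared in the edited line, the median was 0.0038, 1.1% were past 2-fold higher and 1.3% past 2-fold lower. In the edited line the folding and export list had a median of -0.27 over 27 genes, with COLGALT1, which adds galactose to hydroxylysine, at 34.3 in the edited and 77.5 in the parental line (-1.17), while HSPA5 was at -0.31 and HSP90B1 at 0.01. Processing genes had a median of -0.38 over 12 genes, with MMP15 at 44.3 in the edited and 204.2 in the parental line (-2.20) as the gene past 2-fold and MMP14 at -0.84. PXDN was at 370.8 in the edited and 372.1 in the parental line. Matrix receptors had a median of 0.05 over 16 genes. ITGB8, at 27.3 in the edited and 8.53 in the parental line (1.68), and the proteoglycan SDC2, at 30.8 and 11.8 (1.39), were past 2-fold higher, and ITGB4 (-1.05) past 2-fold lower, with ITGB1 at -0.49 and DAG1 at -0.55. Other matrix proteins had a median of -0.20 over 13 genes. Of these, CSPG4, a melanoma proteoglycan, was at 25.3 in the edited and 78.8 in the parental line (-1.64), FBLN1 was at -1.19, and NID1, which links laminin to type IV collagen, at -1.05. LTBP1, which stores TGF-beta in the matrix, was at 40.5 in the edited and 17.02 in the parental line (1.25). VCAN was at -0.62 and HSPG2 at -0.49.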

How the data were processed

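Per the labels, ribosome footprints of CHL-1 cells were sequenced in 6 libraries, and the submitters' processing notes name Bowtie2, TopHat2 and the build hg19, with no versions. No source used here says how the libraries of a group were combined. The deposited values are on a log2 scale, log2(x + 1) of the summed depth x of a bin, rounded to 2 decimals, with 1 table per group and 400 bins per RefSeq transcript. The deposited value of a coding bin is rather a score, since it also holds the value of the row above: after subtracting it, 100% of low coding bins (deposited log2 value under 4) were whole within the rounding error, a tolerance that grows with the value to at most 0.0661, against 5.98% to 6.68% with a random row. It was subtracted and depth rounded to whole numbers. Summary rows were left out.

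Gene names came from the RefSeq table of GRCh38.p14, used for names only, and each gene was read from its transcript of highest mean level over the tables. Log2 ratios used a pseudocount of 0.5 on summed depth. With 1 table per group there is no replicate and no test; a fold of 2 is a limit of size. Members, lists and settings were chosen with earlier results of these data known. Named genes were the members compared and, from each list, those past 2-fold and the 2 with the highest level. The planned readings of proline content and of triple-helical stretches were not made. Steps were tested on simulated tables. Known folds were set there only in genes well above the level minimum, so genes near it were not covered. The carried value was added by the same rule that removes it, so its removal there was given in advance. Python 3.11.15, numpy 2.4.6 and pandas 2.3.3 were used.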

Additional observations from a re-analysis of the deposited data

How the results depend on the processing

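Across 12 other settings (scaling, level minimum, bins, coverage, pseudocount, window and transcript), 73 of 78 recomputed values stayed within 1.5 times of a count or 0.2 of a median, and no median changed sign. The limit of 0.2 is close to the size of the main median log2 ratios (-0.24 and -0.23). Many of the 73 are counts that were 0 and stayed 0, so the tally says little about how firm the results are. Matrix genes past 2-fold lower in the AZC + MG132 table numbered 1, in place of 0, in the last 100 coding bins (P4HA1). In the CRISPR table those lower numbered 1, in place of 5, with a minimum 4 times higher, and 0 with at least 100 covered coding bins. The genes lost from this count were removed by these settings, for low depth or coverage in the CRISPR table. Those higher in the CRISPR table numbered 1, in place of 0, in the first 100 coding bins (MATN2) and 1 in the last 100 (P4HA2). The median log2 ratio lay between -0.36 and -0.09 for AZC + MG132 and between -0.37 and -0.17 for CRISPR over the other settings. No paired analysis was possible because each group has 1 table, without columns for its libraries. The number of separate footprints behind a depth is unknown, which limits most the members with few covered bins.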
